A study of Mus musculus with 4 samples.

Results

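Cyclin-dependent kinase (CDK) inhibitors were read in RNA sequencing of murine 4T1 triple-negative breast cancer cells under iron chelation. The group was defined by family, as the 3 CIP/KIP genes Cdkn1a, Cdkn1b and Cdkn1c and the 4 INK4 genes Cdkn2a, Cdkn2b, Cdkn2c and Cdkn2d, matched by gene symbol. The families were picked with their FPKM in these 4 libraries already known, so the values below are a description. All 7 were present among the 49585 genes of the deposited values, and 4 of them (Cdkn1a, Cdkn1b, Cdkn2c and Cdkn2d) were expressed, meaning that any of the 4 libraries reached an FPKM of 1, as were 12669 genes in all. FPKM is the number of sequenced fragments on a gene scaled to the length of the gene and to the fragments of the library, so it allows levels to be compared between genes of different length.

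The study compared 4T1-HM and 4T1-LM, clones of high and low metastatic capacity that were each grown from 1 single 4T1 cell. Deferasirox (DFX), an iron chelator dissolved in DMSO, was given to each clone at 50 μmol/L for 48 h, and DMSO alone served as the control, which gives the libraries HM_DFX, HM_Ctrl, LM_DFX and LM_Ctrl. A difference between HM and LM is a difference between 2 clones and may not hold for other cells of high or low metastatic capacity. Each condition was represented by 1 library, so there was no replicate check, no test and no p-value, and every difference below is between 2 libraries.

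CDK inhibitors are small proteins that hold back the cyclin-dependent kinases which drive the cell cycle. INK4 proteins, built of ankyrin repeats, bind CDK4 and CDK6 and keep them from the D-type cyclins. CIP/KIP proteins bind cyclin and kinase together and act mainly on complexes of CDK2 with cyclin E or A. Several of these inhibitors are known to be controlled after transcription, by ubiquitin ligases that send the protein for degradation, so an mRNA level is not a protein level.

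The depth was 14363065 to 21883855 fragments per library, recovered from the whole-number steps in the FPKM values. Intervals in brackets or after "interval" are exact 95% intervals on these fragments that reflect counting error alone and leave out how much cultures vary. The mammary epithelial markers Krt8, Krt18, Cdh1 and Epcam were expressed in all 4 libraries, and Krt5 was listed at 0 in all of them. Summed over 12 epithelial markers, the FPKM was 1901 in HM_Ctrl and 635 in HM_DFX, against 2445 in LM_Ctrl and 1188 in LM_DFX. Not all of them fell. Of the 10 expressed ones, 6 were lower by at least 2-fold in HM_DFX and 3 in LM_DFX, while 1, Krt19, was higher by at least 2-fold in LM_DFX. None of 9 leukocyte and 6 endothelial markers reached an FPKM of 1, while among 8 fibroblast markers 1 or 2 did in each library, led by Pdgfra. The summed FPKM of the fibroblast list was 3.66 to 6.39, that of the leukocyte list 0.0399 to 0.525 and that of the endothelial list 0.0231 to 0.257. The part of the lower summed epithelial marker level under DFX in the values below was not tested.

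Cdkn1a and Cdkn2c changed places under DFX. Without DFX, Cdkn2c was the most abundant CDK inhibitor mRNA in both clones, and with DFX it was Cdkn1a. Cdkn2c made up 59.0% of the summed FPKM of the 7 genes in HM_Ctrl and 56.8% in LM_Ctrl, against 5.59% in HM_DFX and 8.49% in LM_DFX. The share of Cdkn1a went the other way, from 8.90% in HM_Ctrl and 8.08% in LM_Ctrl to 66.8% in HM_DFX and 54.6% in LM_DFX. The summed FPKM of all 7 genes was 159 in HM_Ctrl and 127 in HM_DFX, against 100.1 in LM_Ctrl and 112 in LM_DFX. By family, INK4 mRNA was 2.22 times CIP/KIP mRNA in HM_Ctrl and 2.45 times in LM_Ctrl. Under DFX the order of the families turned, and CIP/KIP mRNA was 6.03 times INK4 mRNA in HM_DFX and 3.26 times in LM_DFX.

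**Figure D1:**
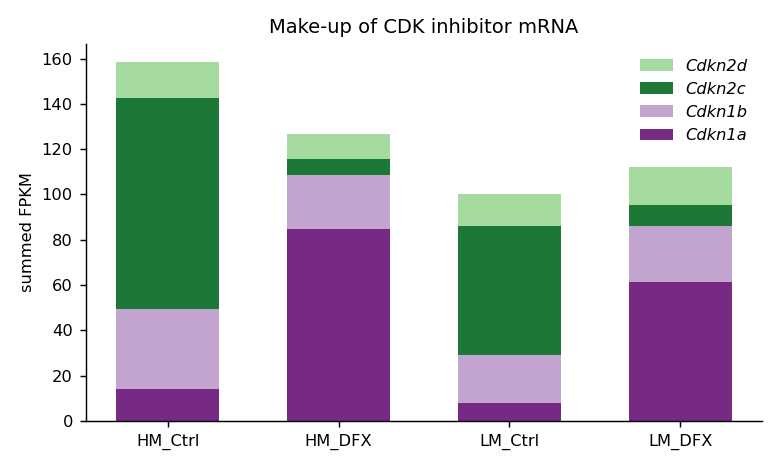
Summed FPKM (vertical axis) of the expressed CDK inhibitor genes in each of the 4 libraries, stacked by gene. Cdkn2c is the largest segment in HM_Ctrl and LM_Ctrl and Cdkn1a in HM_DFX and LM_DFX. Cdkn1c, at 0.0312 in LM_Ctrl, is left out.

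Cdkn1a encodes p21, the CIP/KIP inhibitor best known as a target of p53 and as a mediator of cell cycle arrest after stress. The gene (ENSMUSG00000023067) lies on the plus strand of chromosome 17, from 29090979 to 29100722 of mm10. Its FPKM was 14.1 (interval 12.9 to 15.4) in HM_Ctrl and 84.5 (81.4 to 87.8) in HM_DFX, against 8.09 (7.18 to 9.09) in LM_Ctrl and 61.3 (59.1 to 63.5) in LM_DFX. Both DFX libraries were above both control libraries, and no 2 of the 4 intervals overlapped. Under DFX, Cdkn1a was 5.99-fold higher in HM (interval 5.46 to 6.59) and 7.57-fold higher in LM (6.70 to 8.58). On the log2(FPKM + 1) scale, on which a gene was called at a change of at least 2-fold, the rise was 2.50 in HM and 2.78 in LM. Among expressed genes Cdkn1a moved from rank 4255 in HM_Ctrl to rank 580 in HM_DFX, and from rank 6159 in LM_Ctrl to rank 865 in LM_DFX. Of the 31-base words of its transcripts, 9.78% also occur in other genes, so a part of its fragments may be shared.

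In HM_DFX against HM_Ctrl, Cdkn1a was the only 1 of the 4 expressed inhibitors called higher, where 6.93% of all expressed genes were called higher, and Cdkn2c was the only 1 called lower, where 12.4% were (19.3% in either direction). In LM_DFX against LM_Ctrl the calls were again Cdkn1a higher, beside 7.09% of all expressed genes, and Cdkn2c lower, beside 8.72% (15.8% in either direction). These shares describe all genes, and with 4 expressed members the counts cannot be read as enrichment.

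The bases upstream of Cdkn1a are printed because its mRNA rose in both clones and the gene has 2 start sites in RefSeq. The sequence below is that of the upstream start site at 29090979, from 250 to 4 bases before it, taken from RefSeq promoter windows on GRCm38.p6 (chr17:29090729-29090975, plus strand). Capitals mark the only motif matches in it, both to the p53 half-site, which lie 73 and 51 bases before the start.
Cdkn1a upstream start: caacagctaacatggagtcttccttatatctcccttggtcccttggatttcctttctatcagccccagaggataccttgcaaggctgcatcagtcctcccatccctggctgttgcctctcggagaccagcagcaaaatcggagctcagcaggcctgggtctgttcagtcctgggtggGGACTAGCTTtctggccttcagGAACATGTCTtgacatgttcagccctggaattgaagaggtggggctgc
Motifs were searched in full windows, which reach from 250 bases before a start to a short way past it. The p53 half-site was found in 8.36% of 32817 such promoter windows, and among the inhibitors also in that of Cdkn2d, which was not called. The window of the other start site, at 29093769, held GGGCGG (Sp1) at 2 places and GCGTG (the HIF core) at 1 place, and these occurred in 35.6% and 32.4% of windows. Letters of a motif were searched on both strands, and a match is a description of the sequence, not evidence of binding.

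Cdkn2c encodes p18, an INK4 inhibitor of CDK4 and CDK6. The gene (ENSMUSG00000028551) lies on the minus strand of chromosome 4, from 109660876 to 109667189. Its FPKM was 93.6 (90.8 to 96.5) in HM_Ctrl and 7.08 (6.26 to 7.97) in HM_DFX, against 56.9 (54.7 to 59.2) in LM_Ctrl and 9.53 (8.75 to 10.3) in LM_DFX, from 4210, 273, 2405 and 560 fragments. Both DFX libraries were below both control libraries, and no 2 of the 4 intervals overlapped. In HM_Ctrl the level was 13.2 times that in HM_DFX (interval 11.7 to 15.0), and in LM_Ctrl it was 5.97 times that in LM_DFX (5.45 to 6.56). In bulk RNA, fewer cells with a transcript and less of it per cell cannot be told apart. From rank 478 of the expressed genes in HM_Ctrl and 983 in LM_Ctrl, Cdkn2c dropped to rank 6356 in HM_DFX and 5635 in LM_DFX. The ratio of Cdkn2c to Cdkn1a mRNA was 6.64 in HM_Ctrl and 7.03 in LM_Ctrl, and under DFX the ratio of Cdkn1a to Cdkn2c was 11.9 in HM_DFX and 6.43 in LM_DFX.

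The bases before the downstream start site of Cdkn2c are printed as the counterpart of the Cdkn1a window, since the 2 genes moved in opposite directions. They hold no exon of GENCODE M21, run from 237 to 1 bases before the start at 109665372 (chr4:109665373-109665609, minus strand, GRCm38.p6), and are shown 5′ to 3′ with ACGTG, the other form of the HIF core, in capitals on either strand.
Cdkn2c downstream start: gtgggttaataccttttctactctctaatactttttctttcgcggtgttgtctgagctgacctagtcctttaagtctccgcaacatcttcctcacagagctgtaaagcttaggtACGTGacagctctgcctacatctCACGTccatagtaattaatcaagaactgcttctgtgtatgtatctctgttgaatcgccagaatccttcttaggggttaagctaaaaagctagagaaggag
ACGTG matched at 4 places of the full window, 2 of them in the E-box CACGTG after the start, which reads ACGTG on both strands. It was present in 19.6% of all windows, and CACGTG in 7.15%. The window of the upstream start at 109666756 held GGGCGG at 4 places and GCGTG at 1. Neither E2F form, TTTGGCGC or TTTCGCGC, was found in a window of any inhibitor gene in the table, which held 6 of the 7 and not Cdkn1c, and they occurred in 0.515% and 0.323% of all windows. TGANTCA (AP-1), present in 7.81% of all windows, was found in none either, which says only that these letters are not in these windows.

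**Figure D2:**
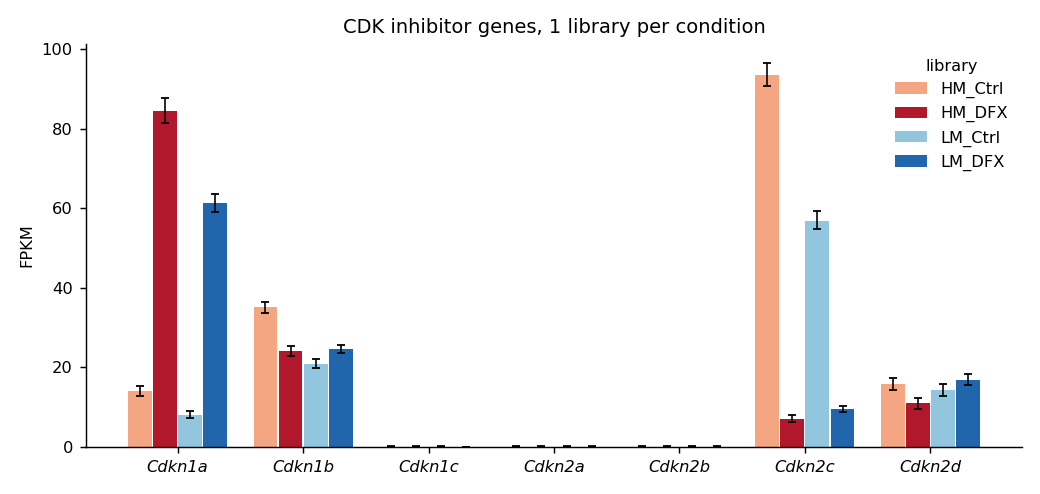
FPKM (vertical axis) of the 7 CDK inhibitor genes in the 4 libraries, with exact 95% counting intervals as bars. Cdkn1a is higher and Cdkn2c lower in both DFX libraries, and Cdkn1c, Cdkn2a and Cdkn2b are at or near 0 throughout.

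Cdkn1b encodes p27, the CIP/KIP inhibitor that restrains CDK2 in quiescent cells. The gene (ENSMUSG00000003031) lies on the plus strand of chromosome 6, from 134920401 to 134925513. Its FPKM was 35.1 (33.8 to 36.5) in HM_Ctrl and 24.0 (22.9 to 25.2) in HM_DFX, against 20.9 (19.8 to 22.0) in LM_Ctrl and 24.7 (23.7 to 25.6) in LM_DFX. HM_Ctrl stood above the other libraries, and the intervals of HM_DFX and LM_DFX overlapped. The ratio of HM_DFX to HM_Ctrl was 0.684 (interval 0.643 to 0.729) and that of LM_DFX to LM_Ctrl was 1.18 (1.11 to 1.26), neither past 2-fold. The clones, which differed 1.68-fold without DFX, had a ratio of 0.975 (0.914 to 1.04) with it.

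Cdkn2d encodes p19, the INK4D inhibitor of CDK4 and CDK6. The gene (ENSMUSG00000096472) lies on the minus strand of chromosome 9, from 21288410 to 21291407. Its FPKM was 15.7 (14.2 to 17.3) in HM_Ctrl and 10.9 (9.61 to 12.4) in HM_DFX, against 14.2 (12.8 to 15.8) in LM_Ctrl and 16.8 (15.5 to 18.2) in LM_DFX. HM_DFX was the lowest library, and the intervals of the other libraries overlapped between neighbours in the order. The ratio of HM_DFX to HM_Ctrl was 0.696 (0.592 to 0.816) and that of LM_DFX to LM_Ctrl 1.18 (1.03 to 1.35). Cdkn2d thus had the flattest profile of the 4 expressed genes.

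Cdkn1c, Cdkn2a and Cdkn2b gave next to no fragments. Cdkn1c (ENSMUSG00000037664, chromosome 7, minus strand, 143458339 to 143461050) encodes p57, a CIP/KIP inhibitor expressed from the maternal chromosome only. It had 1 fragment in LM_Ctrl, an FPKM of 0.0312, and 0 in the other libraries. Of the unique 31-base words of its transcripts, 27.2% also occur in its antisense neighbour Gm44732, which was listed at 0 in all 4 libraries. A floor of 3 fragments per library would be an FPKM of 0.0672 to 0.102 for Cdkn1c. Around it, 5 of 11 imprinted or neighbouring genes were expressed. Phlda2, an imprinted gene that restrains placental growth, had 7.30 FPKM in HM_Ctrl and 4.29 in HM_DFX, against 14.9 in LM_Ctrl and 7.54 in LM_DFX.

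Cdkn2a encodes both p16INK4a and, in another reading frame, p19ARF, a stabiliser of p53, and Cdkn2b encodes p15. The genes are neighbours on the minus strand of chromosome 4, Cdkn2a (ENSMUSG00000044303) from 89274471 to 89294653 and Cdkn2b (ENSMUSG00000073802) from 89306289 to 89311032. Both had 0 fragments in each of the 4 libraries. A floor of 3 fragments per library allows an FPKM of up to 0.117 to 0.178 for Cdkn2a and of 0.0986 to 0.150 for Cdkn2b, for which the exon length was that of GENCODE M21, whose coordinates of the gene differ slightly. The value of Cdkn2a is for the whole gene, so the 0 covers the transcripts of p16INK4a and p19ARF alike. None of the 31-base words of Cdkn2a or Cdkn2b occurs in another gene.

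Nearby genes were read to see how far this silence extends along the chromosome. Of 40 other protein-coding genes within 1 Mb of Cdkn2a or Cdkn2b, 28 were listed at 0 in all 4 libraries, among them the type I interferon genes Ifna1, Ifna2 and Ifne, 6 were above 0 but under 1, and 6 reached an FPKM of 1. The nearest expressed protein-coding gene was Mtap, a methionine salvage enzyme, whose end lies 93.4 kb from Cdkn2a. It was among the abundant genes, with an FPKM of 278 in HM_Ctrl and 46.2 in HM_DFX, against 246 in LM_Ctrl and 68.3 in LM_DFX, so that it fell under DFX, with a log2 fold change of -2.56 in HM and of -1.83 in LM. On the same side Klhl9, an adaptor of a ubiquitin ligase, had an FPKM of 16.0, 24.5, 13.6 and 19.1 in HM_Ctrl, HM_DFX, LM_Ctrl and LM_DFX, and Ifnb1, interferon beta, had 37 and 60 fragments in HM_DFX and LM_DFX against 0 and 1 in HM_Ctrl and LM_Ctrl. On the far side of Cdkn2b, Dmrta1 was listed at 0 in all 4 libraries. Between Mtap and Cdkn2a, the noncoding gene Gm12606, named after its values were seen, ends 1.07 kb from Cdkn2a and had 23, 56, 27 and 56 fragments in HM_Ctrl, HM_DFX, LM_Ctrl and LM_DFX. RNA values do not show whether the DNA of Cdkn2a and Cdkn2b was present.

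**Figure D3:**
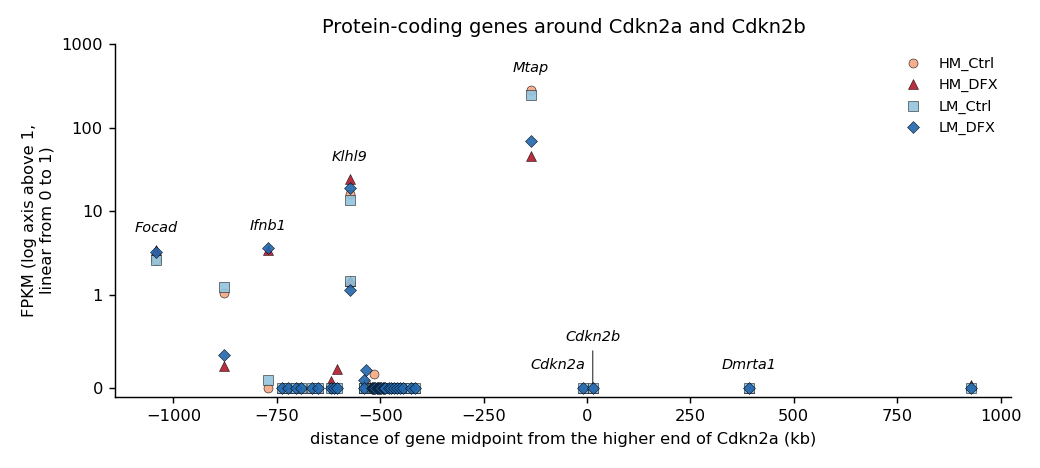
FPKM (vertical axis, logarithmic above 1 and linear from 0 to 1) of protein-coding genes around Cdkn2a and Cdkn2b in the 4 libraries, against distance in kb (horizontal axis). Cdkn2a, Cdkn2b and Dmrta1 lie at 0, while Mtap, 93.4 kb away, has 46.2 to 278.

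Without DFX, 3 of the 4 expressed inhibitors had more mRNA in the HM clone, and none was past 2-fold in a comparison where 3.65% of expressed genes were called higher and 3.15% lower (6.8% in all). The ratio of HM_Ctrl to LM_Ctrl was 1.74 (interval 1.51 to 2.02) for Cdkn1a, 1.68 (1.58 to 1.79) for Cdkn1b and 1.64 (1.56 to 1.73) for Cdkn2c. For Cdkn2d it was 1.10, and the interval of 0.956 to 1.28 held equality. The first 3 genes, from both families, thus differed between the clones by nearly the same factor. At a threshold of 1.5-fold these 3 were called higher, beside 10.5% of all expressed genes. These HM_Ctrl and LM_Ctrl values are also the controls of the DFX comparisons, so the results are not independent.

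Under DFX, no inhibitor was past 2-fold between the clones, where 3.31% of expressed genes were called higher and 5.05% lower in HM_DFX (8.36% in all). Cdkn1a was higher in HM_DFX than in LM_DFX, with a ratio of 1.38 (1.31 to 1.45). Cdkn2c and Cdkn2d were lower, with ratios of 0.743 (0.640 to 0.860) and 0.650 (0.558 to 0.756).

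**Figure D4:**
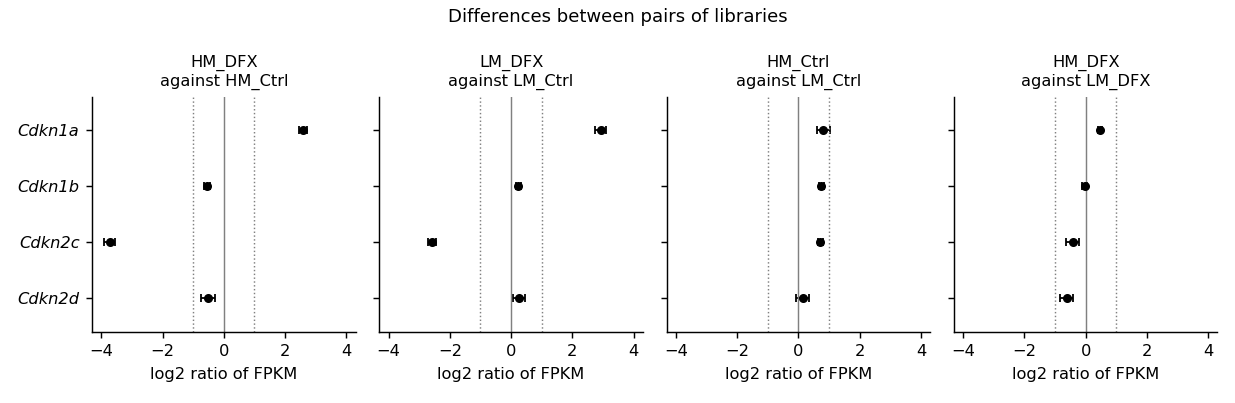
Log2 ratio of FPKM, with no pseudocount (horizontal axis), of the 4 expressed CDK inhibitor genes in the 4 comparisons, with exact 95% counting intervals. Dotted lines mark 2-fold. Cdkn1a and Cdkn2c are past 2-fold under DFX in both clones, and no gene is past it between the clones.

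The difference in response, the log2 fold change of HM minus that of LM, was below 0 for all 4 genes on the log2(FPKM + 1) scale. It was -1.09 for Cdkn2c, -0.76 for Cdkn1b, -0.71 for Cdkn2d and -0.27 for Cdkn1a. The corresponding intervals for counting error, computed without the pseudocount on a log-normal approximation, were -1.37 to -0.93, -0.92 to -0.66, -1.06 to -0.47 and -0.56 to -0.12. Over all 12669 expressed genes the median difference was -0.08, with quartiles of -0.42 and 0.24. Only for Cdkn2c did the difference between the clones pass 2-fold, and whether it exceeds the variation between cultures cannot be learned from 1 library each.

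The cyclins and kinases that the inhibitors act on follow, with log2 fold changes of FPKM + 1 under DFX. All 5 INK4 targets were expressed. Only Ccnd1, cyclin D1, was called, as lower in both clones, where 12.4% (HM) and 8.72% (LM) of expressed genes were. Its FPKM was 293 in HM_Ctrl and 45.5 in HM_DFX, against 326 in LM_Ctrl and 78.3 in LM_DFX, which is -2.66 in HM and -2.04 in LM. Cyclin D1 mRNA was thus reduced in the same libraries as the INK4 gene Cdkn2c. Cdk4 had log2 values of -0.81 in HM and -0.20 in LM, and Cdk6 of -0.28 and -0.13. The other D cyclins were also under 2-fold, with 0.13 and 0.41 for Ccnd2 and -0.26 and 0.07 for Ccnd3 in HM and LM.

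Of the 8 CIP/KIP targets 7 were expressed, and Ccna1 was listed at 0 throughout. In HM_DFX, 3 were lower by at least 2-fold, in LM_DFX 4 were, and none was higher. Over all expressed genes, 12.4% were lower and 6.93% higher in HM_DFX, and 8.72% and 7.09% in LM_DFX. The mitotic cyclin Ccnb2 fell, with -2.88 in HM and -2.59 in LM, as did Ccnb1, with -1.79 and -1.95, and the S-phase cyclin Ccna2, with -1.05 and -1.08. The fourth called gene in LM was Ccne1, cyclin E1, with -1.44 there and -0.33 in HM. Ccne2 had 0.49 in HM and -0.59 in LM. The kinases Cdk1 and Cdk2 were under 2-fold, at -0.94 and -0.86 for Cdk1 and -0.29 and -0.55 for Cdk2. The list median was -0.94 in HM and -1.08 in LM, beside -0.10 and -0.04 over all expressed genes. Proliferation markers were mostly, but not all, lower under DFX. Of 20 such genes, 5 were lower by at least 2-fold in HM_DFX and 3 in LM_DFX, none was higher, and the list medians were -0.39 and -0.30. Fold changes were above 0 for 6 of the 20 in HM and for 3 in LM. The 3 genes of this list with the largest change follow. The mitotic kinase gene Plk1 had -2.95 in HM and -2.88 in LM, Rrm2, a subunit of ribonucleotide reductase, -1.51 and -2.34, and the centromere protein gene Cenpf -1.42 and -1.70. The part of proliferation in the values of the inhibitors was not tested.

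**Figure D5:**
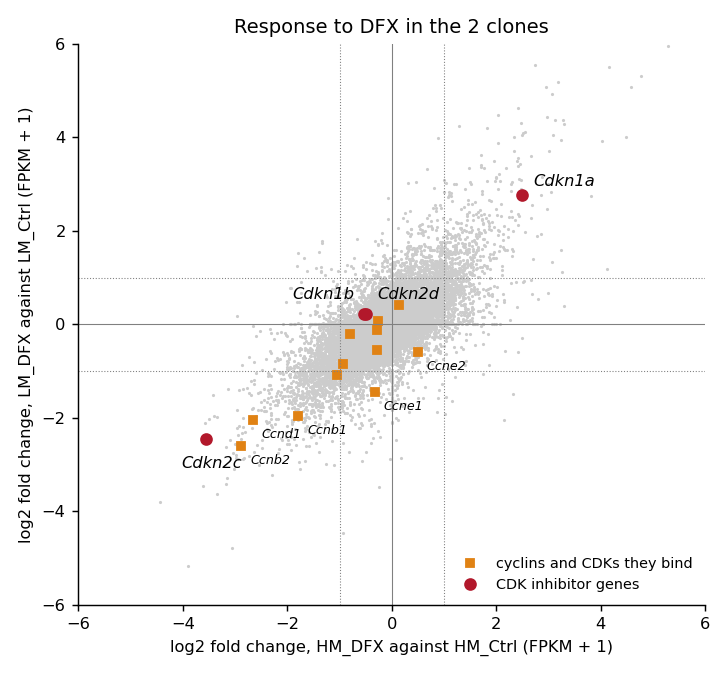
Log2 fold change of FPKM + 1 under DFX in HM (horizontal axis) and in LM (vertical axis), for 12669 expressed genes (grey), CDK inhibitor genes (red) and the cyclins and CDKs of the target lists (orange). Dotted lines mark 2-fold. Cdkn1a is past 2-fold upwards and Cdkn2c, Ccnd1, Ccnb1 and Ccnb2 downwards in both clones.

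Of 13 genes for the turnover of p21, p27 and p57, all expressed, 1 was lower by at least 2-fold in each clone and none was higher. This was Cdc20, an activator of the anaphase-promoting complex, with -1.58 in HM and -2.60 in LM. Skp2, the F-box protein that marks p27 for degradation, had values of -0.29 in HM and -0.92 in LM, and its partner Cks1b -0.38 and -0.62. Dtl, which targets p21 during S phase, had 0.48 and 0.31. The other genes of the list lay between -0.74, for Fzr1 in LM, and 0.32, for Rbx1 in HM. Kinases and phosphatases that set the phosphorylation of the CDKs had 2 of 9 genes lower by at least 2-fold and none higher in either clone. Beside both lists, 12.4% of all expressed genes were called lower and 6.93% higher in HM, and 8.72% and 7.09% in LM. Cdc25b, a phosphatase that activates CDK1, had -2.41 in HM and -0.73 in LM, and the phosphatase gene Cdkn3 had -1.98 and -1.78. Cdc25c was past 2-fold in LM only, where its FPKM was 17.1 in LM_Ctrl and 6.36 in LM_DFX, against 14.3 in HM_Ctrl and 7.53 in HM_DFX.

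Of 15 expressed transcription factors known to act on CIP/KIP genes, 5 were called higher and 2 lower in HM, and 5 higher and 1 lower in LM, and the list medians were 0.83 and 0.55. Over all expressed genes, 6.93% were called higher and 12.4% lower in HM, and 7.09% and 8.72% in LM. The mRNA of Klf4, a Krüppel-like factor that can activate Cdkn1a, rose by 1.54 in HM and by 2.58 in LM. In the paper's blots, iron chelators, with DFX at a lower dose, lowered KLF4 protein more strongly in HM than in LM. Foxo3, a forkhead factor known to act on Cdkn1b, rose by 1.77 and 2.01, while Cdkn1b had -0.53 in HM and 0.23 in LM. The lower genes, named after their values were seen, were Foxo4, with -1.17 in HM and -1.29 in LM, and Hif1a, with -1.15 and -0.81. Trp53, the gene of p53, named after its values were seen, had 17.5 FPKM in HM_Ctrl and 38.1 in HM_DFX, against 14.7 in LM_Ctrl and 30.9 in LM_DFX, a rise by 1.08 in HM and by 1.02 in LM. Trp53 mRNA does not show whether these cells had functional p53, which was not tested. Of 16 other expressed p53 targets, 5 were higher by at least 2-fold in HM and 4 in LM, and none was lower by that much. Fold changes were below 0 for 7 of the 16 in HM and for 8 in LM, and the list medians were 0.29 and 0.05. Gadd45a rose by 1.47 and 2.41, Plk2 by 2.37 in HM with 0.91 in LM, and Trp53inp1 by 1.22 and 1.71.

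Of 20 expressed regulators of the Cdkn2a and Cdkn2b locus, 2 were called higher and 3 lower in HM, and 1 of each in LM, with list medians of 0.00 and 0.11. Over all expressed genes, 6.93% were called higher and 12.4% lower in HM, and 7.09% and 8.72% in LM. These few calls cannot be read as enrichment. The histone H3K27 demethylase gene Kdm6b, which can open the locus, rose by 2.05 and 2.00, and Cdkn2a and Cdkn2b were at 0 in every library. Id1 had -2.13 and -2.43, and the Polycomb gene Cbx7 had -1.54 in HM and -0.76 in LM. Of the 13 RB and E2F genes, 2 were lower by at least 2-fold in HM and 1 in LM, with list medians of -0.09 and -0.37. E2f8, a repressor of the E2F family, had -1.37 and -1.33, and Rbl2, which encodes the pocket protein p130, had -1.33 in HM and -0.17 in LM. Tfdp2, an E2F partner, had -0.95 and -0.52. No gene of this list was higher by at least 2-fold, while 5 were above 0 in HM and 4 in LM.

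For the inhibitors that spanned at least 1 log2 unit, Cdkn1a and Cdkn2c, the genes of most similar profile were sought among the 6295 protein-coding genes whose highest library reached an FPKM of 10. Similarity was the root mean square difference of centred log2(FPKM + 1) over the 4 libraries, which are few points for such a measure. For Cdkn1a the nearest were Oser1 (0.19), the Krüppel-like factor gene Klf11 (0.19) and Ankrd33b (0.21). The FPKM of Oser1 was 10.1 in HM_Ctrl and 53.6 in HM_DFX, against 6.72 in LM_Ctrl and 37.1 in LM_DFX. For Cdkn2c they were Snn (0.18), the fatty acid elongase gene Elovl6 (0.25) and the homeobox gene Hoxa6 (0.28). Elovl6 had 31.7 FPKM in HM_Ctrl and 3.31 in HM_DFX, against 28.9 in LM_Ctrl and 3.79 in LM_DFX.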

How the data were processed

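Total RNA was selected for poly(A), and directional libraries were sequenced as paired ends, with 1 library per condition. The submitters' processing notes name FastQC, Trimmomatic, HISAT2, featureCounts and build mm10. Versions and the strand setting of the counting are not given in the sources used here. The authors deposited FPKM. FPKM are not counts and there was 1 library per condition, so the edgeR test of the authors was not repeated. Samples were grouped by title, and all sample columns were used. Fragments were recovered with exon lengths of GENCODE M21, which gave values within 0.02 of a whole number in all 4 libraries for 96.8% of 18236 genes. For Cdkn1a the coordinates differ from that release, so the shortest length that gave whole fragments, 2223 bases, was used, which gives the fewest fragments and widest intervals.

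Fold changes were log2 ratios of FPKM + 1, a scale that understates changes of low genes. Genes that reached an FPKM of 1 in any library were called at 2-fold. Ratios given as such have no pseudocount. Their intervals are Clopper–Pearson intervals of 1 library's share of a pair's fragments. The members and the 10 pathway lists, of 123 expressed genes, were chosen with earlier results of these data known. The 7 members, all target and turnover genes, at most 3 genes of each other list with the largest change under DFX, the genes near Cdkn2a and the 3 genes most like a member were named. A gene that this rule names is not reported here. The calling was tried on simulated fragments with 4-fold changes and counting error alone, which leaves out the variation between cultures. Python 3.11.15, pandas 2.3.3 and SciPy 1.17.1 were used. Alternatives were other pseudocounts, filters, scalings and thresholds.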

Additional observations from a re-analysis of the deposited data

Results flagged for a closer look

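The genes looked at were the 4 expressed inhibitors, 5 INK4 targets, 7 CIP/KIP targets and 13 turnover genes. Of these, 4 had opposite signs under DFX in the clones, with counting intervals on opposite sides of 0. With 1 library per condition, these differences were not tested. On the log2(FPKM + 1) scale, the fold change of HM minus that of LM was -0.76 for Cdkn1b and -0.71 for Cdkn2d, which had lower values in HM_DFX than in HM_Ctrl and higher values in LM_DFX than in LM_Ctrl. It was 1.08 for Ccne2 and 0.46 for Rbx1, which had the opposite signs. None of these 4 genes was past 2-fold in either clone. Over all 12669 expressed genes, 2915 (23.0%) had opposite signs in the clones, counting intervals not considered. By that looser criterion Ccnd3, Cul4a, Rnf123 and Ubac1 also had opposite signs. Opposite signs were thus not particular to the 4 genes, and their number cannot be set directly against the 23.0%.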

How the results depend on the processing

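The calls of Cdkn1a higher and Cdkn2c lower under DFX held in both clones under every alternative run: a pseudocount of 0.1 or none, a filter on the mean FPKM or none at all, median-ratio, 75th percentile and TPM scaling, and thresholds of 1.5-fold and 4-fold. Over the alternatives in scale, filter and pseudocount, the log2 change of Cdkn1a was 2.50 to 2.63 in HM and 2.77 to 2.92 in LM, and that of Cdkn2c -3.73 to -3.42 and -2.58 to -2.39. Median-ratio scaling moved the median of all expressed genes in HM_DFX against HM_Ctrl from -0.10 to 0.00, with 1118 genes higher and 1276 lower in place of 878 and 1568. Cdkn1b in HM then had -0.40 in place of -0.53. At 1.5-fold, 3 inhibitors were called higher in HM_Ctrl than in LM_Ctrl, in place of 0, beside 10.5% of all expressed genes.

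Of 123 expressed pathway list genes, 12 were called higher and 19 lower in HM_DFX against HM_Ctrl, beside 6.93% and 12.4% of all expressed genes. The list counts were 20 and 35 at 1.5-fold and 2 and 5 at 4-fold. In LM_DFX against LM_Ctrl they were 10 and 14, beside 7.09% and 8.72% of all expressed genes, with 18 and 32 at 1.5-fold and 5 and 6 at 4-fold. In HM_Ctrl against LM_Ctrl they were 4 and 1, with 9 and 16 at 1.5-fold and 1 and 0 at 4-fold, and 3 were lower with a pseudocount of 0.1 or none and 2 with TPM. In HM_DFX against LM_DFX they were 2 and 3, with 12 and 20 at 1.5-fold and 0 of each at 4-fold, and 5 were lower with no pseudocount. Counts move with the threshold by construction, and for the other settings the cause was not tested. Over all genes in HM_DFX against HM_Ctrl, the 878 higher and 1568 lower became 1234 and 2397 with a pseudocount of 0.1, 2031 and 3297 at 1.5-fold and 111 and 166 at 4-fold. In LM_DFX against LM_Ctrl, 898 and 1105 became 1349 and 1721, 2088 and 2528, and 180 and 134 in the same order. Between the clones, 462 and 399 in the controls became 883 and 674 with a pseudocount of 0.1, and 419 and 640 under DFX became 810 and 1183. With no pseudocount, lower genes were 2371 in HM and 1727 in LM under DFX, and the clones differed in 836 and 664 genes in the controls and in 789 and 1182 under DFX. With TPM, 804 genes were higher in HM_Ctrl and 747 in HM_DFX than in the LM library. At 1.5-fold the clones differed in 1329 and 1102 genes in the controls and 1260 and 1848 under DFX, and at 4-fold in 42 and 55, and 36 and 59. Within a clone, no paired analysis was possible because each condition has 1 library and the labels give no replicate numbers, and leaving out a library would leave no comparison. A fit of DFX over both clones with the clone as a block, which would leave 1 residual degree of freedom, was not run. Cdkn1c, Cdkn2a and Cdkn2b were under the floor of 3 fragments in every library, and counting error left the direction undecided for Cdkn2d between the controls and for Cdkn1b between the DFX libraries.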
